A study of Mus musculus with 8 samples.

Results

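Ndrg1 and 9 other genes known to respond to low oxygen (Vegfa, Slc2a1, Egln3, Ddit4, P4ha1, Adm, Bnip3, Bnip3l and Pdk1) were followed in splenic tumors of mice and in the cells that formed them. The genes were chosen by name, because Ndrg1 had been seen at higher signal in tumors, and the question was whether other hypoxia-responsive genes were higher with it. Every probe set whose annotation holds one of the 10 symbols was taken, alone or joined with another symbol, which gave 22 of the 22690 probe sets on the array. The tumor-against-parental values of these genes are therefore given as a description. Counts of calls in that contrast stand only beside the share over all genes, and nothing is read from them. The differences among tumors and between duplicate arrays, which did not enter the choice, were tested.

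The tumor group consisted of tumor cells from the spleens of 3 nude mice that had been injected intravenously with transfected FL5.12 cells and had developed leukemia or lymphoma. The parental group was the injected line itself, the mouse pro-B line FL5.12, which needs interleukin-3, after stable transfection with Bfl-1DC and p53DD (whether it was 1 clone is not stated), so tumors and parental cells carried both constructs. Every source, that is each of the 3 tumors and the parental line, had 2 Affymetrix arrays, numbered 1 and 2 in the labels and called the first and the second array here, which made 8 arrays. The labels give 1 culture protocol, with medium that held interleukin-3, for all samples and no treatment. Whether tumor cells were kept in culture before RNA was taken is not settled by them, so the tumor values may be those of the spleen or of culture. The age of the mice is not given, and whether the 2 arrays of a source came from separate cultures or RNA extractions is not stated, so p-values that rest on them may measure technical spread alone. Nude mice lack a thymus but keep myeloid, erythroid and endothelial cells, and in such bulk RNA fewer cells of a type and less RNA per cell cannot be told apart.

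Cells sense oxygen through prolyl hydroxylases, which use oxygen to mark the alpha subunits of hypoxia-inducible factor (HIF) for binding by the VHL protein and destruction. When oxygen is short, HIF persists, pairs with Arnt and binds promoters and enhancers at the core sequences ACGTG or GCGTG. Its targets shift metabolism from respiration to glycolysis, attract vessels, remove mitochondria and, through Egln3, feed back on HIF itself. Ndrg1 is a classic target of this kind, but it is also known to respond to metal ions, iron depletion, stress of the endoplasmic reticulum and p53.

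Of the B lineage markers, 5 of 12 were measured, and Pax5, Ebf1, Rag1, Vpreb1 and Blnk, which define early B cells, lay below the filter on low signal in tumors and parental cells, with no signal above 18.9. The 5 measured genes summed to 1397 to 2518 on tumor arrays and 1456 to 2120 on parental arrays, most of it from Ptprc. Of these 5 genes 4, all but Ptprc, had a higher mean in tumors. Cd79b read 208.6 to 298.2 on tumor arrays, against 109.4 and 77.6 in parental cells (limma adjusted p = 0.0412). The tumors held signal of other lineages. The summed signal of 9 macrophage and monocyte genes was 2463 to 5999 on tumor arrays and 224 to 1062 on parental arrays. Lgals3 gave the largest part on tumor arrays, and 8 of the 9 had a higher mean in tumors. Csf1r, the exception, read 19.1 to 243 on tumor arrays and 11.5 and 555 on parental arrays. The sum of 12 neutrophil genes was 4188 to 10614 on tumor arrays, most from Mpo, Prtn3 and Ngp, and 343 to 838 on parental arrays. That of 4 eosinophil genes was 3634 to 8218 on tumor arrays and 33.0 to 37.4 on parental arrays. The 4 measured mast cell and basophil genes summed to 65.8 to 8779 on tumor arrays and 204 to 2879 on parental arrays. Of these Fcer1a read 5067 and 6654 in tumor 1. The 3 measured T cell genes summed to 844 to 2566 on tumor arrays and 71.4 to 143 on parental arrays; Cd3g, a subunit of CD3, read 752 to 1821 on tumor arrays and 34.9 to 43.1 on parental arrays, while Cd3e did not exceed 12.2. The 7 measured endothelial genes summed to 317 to 520 on tumor arrays and 385 to 387 on parental arrays, and Cdh5, which defines that cell type, did not exceed 14.3 on any array. Erythroid genes (6 measured) summed to 360 to 1337 on tumor arrays and 1062 to 1725 on parental arrays, and the alpha globin gene Hba-a1 did not exceed 14.1. The part of these cells in the values below was not tested.

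Ndrg1, a cytoplasmic protein of the NDRG family that restrains growth and metastasis in many cancers (chromosome 15, 66929318 to 66969641, GRCm38.p6), was higher in all 3 tumors on each of its 5 probe sets. On the probe set with the highest signal, 1456174_x_at, the 2 arrays read 199 and 302 (tumor 1), 261 and 371 (tumor 2) and 366 and 367 (tumor 3) on tumor arrays, against 42.3 and 59.5 in parental cells. All 6 tumor arrays lay above both parental arrays, with a wide gap between the groups. Its mean signal was 311 ± 58.3 (SD, n = 3 tumors) in tumors and 50.9 ± 12.2 (SD, n = 2 arrays) in parental cells, a ratio of 6.11. On the scale of log2(signal + 16), used for all changes here because it damps the noise of dim probe sets, tumors minus parental was 2.27 ± 0.22 (SE).

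The other 4 probe sets of Ndrg1 gave ratios of 4.48 to 5.20 and log2 changes of 1.51 to 1.84. Probe sets ending in _s_at or _x_at may match more than one transcript, whereas 1423413_at and 1450976_at are of the specific kind. On 1450976_at the signal was 92.9 and 112 (tumor 1), 104 and 127 (tumor 2) and 145 and 145 (tumor 3) on tumor arrays, against 24.2 and 22.3 in parental cells. On 1423413_at the tumor means averaged 94.0 ± 20.7 (SD, n = 3) and the parental arrays 19.2 ± 2.76 (SD, n = 2). On all 5 probe sets every one of the 6 tumor arrays lay above both parental arrays, which was so for 9.35% of all probe sets above the filter and 10.3% of genes.

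**Figure D1:**
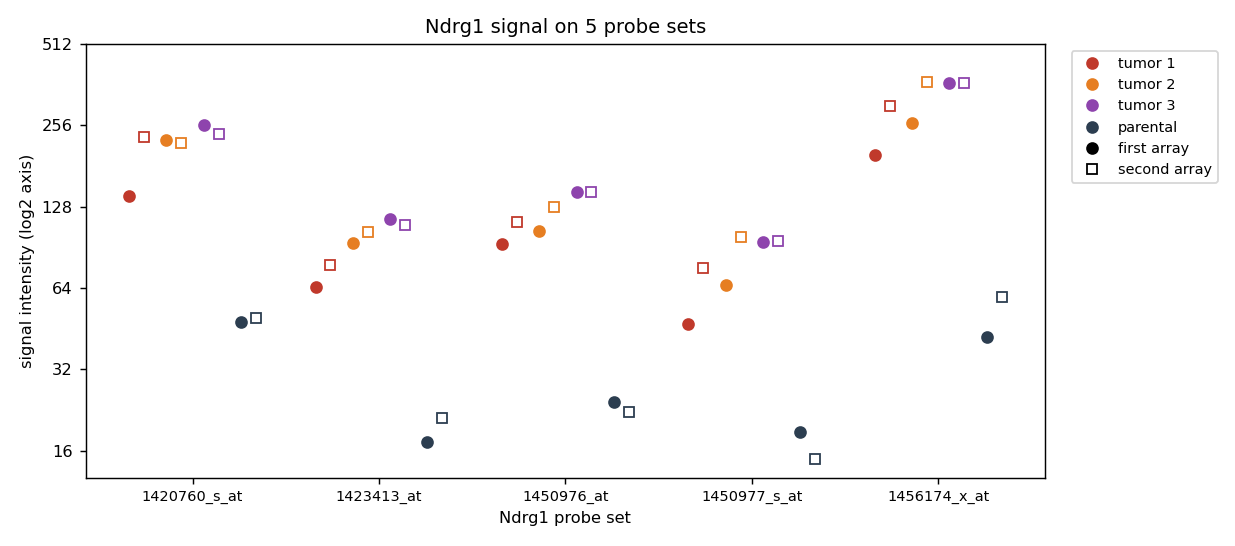
Signal intensity (vertical, log2 axis) of the 5 Ndrg1 probe sets (horizontal) on each array, with tumors left of parental cells, filled circles for first arrays and open squares for second arrays. On every probe set the 6 tumor points lie above both parental points, and on 1456174_x_at they run from 199 to 371 against 42.3 and 59.5.

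Tumor 1 had the lowest and tumor 3 the highest change of Ndrg1, at 1.98 in tumor 1, 2.30 in tumor 2 and 2.53 in tumor 3 (each ± 0.27 SE, from duplicate arrays). These neighbours did not differ beyond the spread of duplicate arrays: limma's F test over the 3 tumors gave an adjusted p of 0.663, and tumor 1 minus tumor 3 was -0.55 ± 0.27 (SE; adjusted p = 0.447). The same order of tumor means was found on each of the 5 probe sets.

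By limma's F test, none of the 8 genes in the gene-level fit, nor Bnip3l in the fit of probe sets, differed between the tumors at an adjusted p of 0.05, where 1.62% of all 8535 genes did; 0 of them had an unadjusted p under 0.05, where 12.6% of all genes did. That test is blunt: in data simulated with the genes' own spread it recovered 0% of differences of 1 log2 unit in a single tumor and 80.5% of differences of 2 units, so smaller differences between mice were not detectable here. The widest gap was that of Pdk1, whose tumor 1 minus tumor 3 was -1.31 ± 0.64 (SE; adjusted p = 0.45). Egln3 went the other way, with tumor 1 minus tumor 3 at 0.95 ± 0.44 (SE; adjusted p = 0.431), and Ddit4 likewise at 0.69 ± 0.31 (SE; adjusted p = 0.409).

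The other genes had no mean change above 0 on the probe sets that stand for them. Adm was below the filter on low signal, and the changes of the remaining 8 ran from -0.03 for Slc2a1 to -0.80 for Bnip3l, with a median of -0.35, against 0.022 over all genes tested. In the limma fit across 8535 genes 0.773% were called at an adjusted p of 0.05; Ndrg1, whose rise prompted the choice of the genes, was among them, and 0 of the other 8 were called there or, for Bnip3l, in the fit over 14893 probe sets (1 had an unadjusted p under 0.05). With the array number as a block in a fit of all 8 arrays, which measures the spread between duplicate arrays and not between mice, 14.5% of genes were called, and 1 of the 8 (Bnip3l). Since the genes were chosen on this contrast, nothing is read from these counts.

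**Figure D2:**
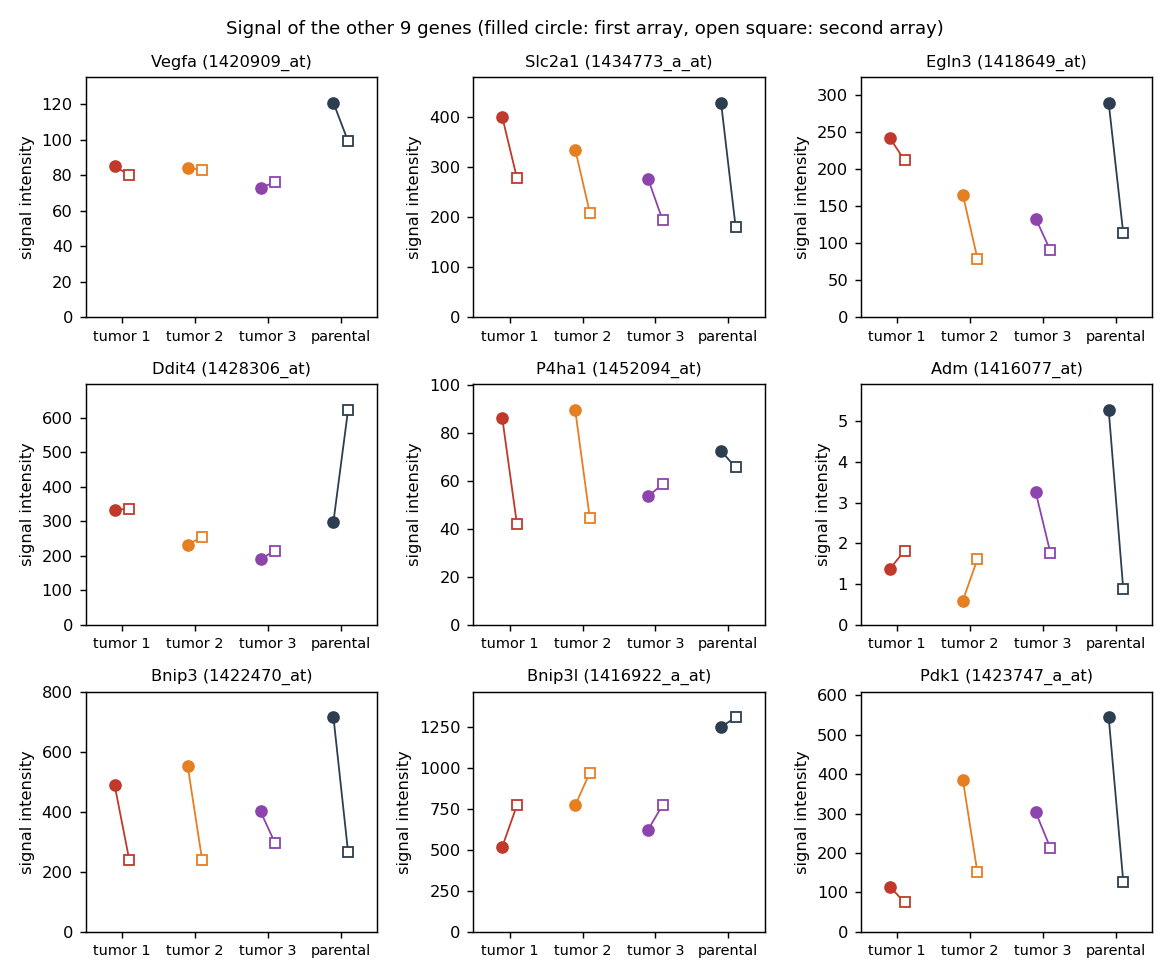
Signal intensity (vertical, linear from 0) of the other 9 genes by source (horizontal, tumors left of parental cells), each on the probe set that stands for it, with a filled circle for the first and an open square for the second array. Bnip3l and Vegfa lie lower on all 6 tumor arrays than on both parental arrays, and in Bnip3, Pdk1, Slc2a1 and Egln3 the first array is above the second in every source.

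Egln3 is the oxygen-sensing prolyl hydroxylase that HIF itself induces. Its signal on 1418649_at was 242 and 212 (tumor 1), 165 and 79.2 (tumor 2) and 133 and 90.2 (tumor 3) on tumor arrays, against 289 and 113 in parental cells. All tumor arrays but those of tumor 2 and tumor 3 with the number 2 lay between the parental values, so the groups overlapped. The change was -0.32 ± 0.43 (SE) on this probe set and -0.65 on the dimmer 1418648_at.

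Slc2a1, the glucose transporter GLUT1, imports the sugar on which glycolysis runs. On 1434773_a_at it read 401 and 279 (tumor 1), 336 and 210 (tumor 2) and 277 and 194 (tumor 3) on tumor arrays, against 429 and 180 in parental cells. Every tumor array lay between the parental arrays, and the change was -0.03 ± 0.35 (SE), with 0.14 and 0.15 on the other 2 probe sets. Under the other scalings of the arrays it stayed within -0.13 and -0.0038.

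Pdk1 encodes a kinase that switches off pyruvate dehydrogenase and so keeps pyruvate out of mitochondria. Its signal on 1423747_a_at was 115 and 74.4 (tumor 1), 386 and 151 (tumor 2) and 303 and 213 (tumor 3) on tumor arrays, against 544 and 127 in parental cells. Tumor 1 held the lowest values on both arrays. The change was -0.53 ± 0.63 (SE), made up of -1.38 in tumor 1, -0.13 in tumor 2 and -0.07 in tumor 3. On the dimmer 1423748_at it was -0.11, made up of -0.75 in tumor 1, 0.17 in tumor 2 and 0.23 in tumor 3.

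Vegfa, the growth factor that calls in blood vessels, was lower on all 6 tumor arrays than on both parental arrays on 1420909_at, as were 8.28% of all genes. It read 85.1 and 80.1 (tumor 1), 84.0 and 83.2 (tumor 2) and 73.1 and 76.1 (tumor 3) on tumor arrays, against 121 and 99.3 in parental cells. The change was -0.38 ± 0.16 (SE). On the dimmer 1451959_a_at it was -0.35 and the groups overlapped. Adm, the vessel-relaxing peptide adrenomedullin, did not exceed 3.25 on any tumor array or 5.27 on any parental array, while the 40th percentile of signal lay between 15.6 and 20.7, so no change can be given.

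Ddit4, also called REDD1, restrains mTORC1 through the TSC complex. Its signal was 334 and 336 (tumor 1), 232 and 255 (tumor 2) and 190.2 and 215 (tumor 3) on tumor arrays, against 299 and 623 in parental cells. The parental arrays were the furthest apart of all sources, and tumor 1 lay between them. The change was -0.73 ± 0.34 (SE), and it was -0.22 without parental array 2 and -1.24 without parental array 1. P4ha1 is a subunit of the enzyme that hydroxylates collagen. On 1452094_at it read 86.2 and 42.1 (tumor 1), 89.5 and 44.5 (tumor 2) and 53.5 and 58.8 (tumor 3) on tumor arrays, against 72.5 and 65.6 in parental cells, a change of -0.16 ± 0.15 (SE), and the other probe set gave -0.12.

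Bnip3 and Bnip3l are related proteins of the outer mitochondrial membrane that tether mitochondria for removal by autophagy; Bnip3l (Nix) also clears mitochondria from maturing red cells. Bnip3l was lower in tumors on all 3 of its probe sets, which the annotation joins with the pseudogene Bnip3l-ps, so signal of the gene and of its copy cannot be told apart. On 1416922_a_at it read 521 and 773 (tumor 1), 774 and 974 (tumor 2) and 625 and 777 (tumor 3) on tumor arrays, against 1253 and 1312 in parental cells. All 6 tumor arrays lay below both parental arrays on each of the 3 probe sets, which was so for 8.27% of all probe sets above the filter. The changes were -0.80, -0.78 and -0.96, and tumor 2 was the nearest to parental cells on each, at -0.55, -0.41 and -0.54.

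Bnip3, in contrast, overlapped between the groups. Its signal was 489 and 240.1 (tumor 1), 555 and 239 (tumor 2) and 402 and 296 (tumor 3) on tumor arrays, against 716 and 267 in parental cells. The first array of every source was above the second, by 0.42 log2 units in tumor 3 and 0.98 to 1.37 in the other sources. The change was -0.31 ± 0.37 (SE) with the tumors alike, at -0.34 in tumor 1, -0.25 in tumor 2 and -0.34 in tumor 3.

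The wider pathway was described with 4 lists of 122 genes in all, of which 82 were measured. Of these 82 genes 1, Ramp1, rose and 0 fell by limma at an adjusted p of 0.05, against 0.598% called higher and 0.176% called lower among all genes. An unadjusted p under 0.05 was found for 14 of the 82 and for 16.4% of all genes, which is a like share. With the array number as a block in the fit of all 8 arrays, 6 of the 82 were called higher and 6 lower, where 14.5% of all genes were called. Here and in the lists below, that fit measures the spread between duplicate arrays and not between mice.

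Among HIF and its oxygen sensors, 3 of 9 measured genes had a change above 0, and the median was -0.26. Hif1a, the oxygen-labile subunit itself, had a signal of 614 ± 84.2 (SD, n = 3 tumors) in tumors and 872 ± 18.8 (SD, n = 2 arrays) in parental cells, a change of -0.51 ± 0.17 (SE; limma adjusted p = 0.228). Egln2, a prolyl hydroxylase, had a change of -0.50 (adjusted p = 0.24), and Vhl, which recognises hydroxylated HIF, had a change of 0.61 (adjusted p = 0.228). None of the 3 passed. With the array number as a block, Hif1a, Egln1 and Egln2 were called lower (adjusted p = 0.0475, 0.0446 and 0.04) and Vhl higher (adjusted p = 0.0174).

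Of 42 further hypoxia-responsive genes 25 had a change above 0, with a median of 0.097, and 0 were called by limma, while 5 had an unadjusted p under 0.05, where 16.4% of all genes did. Car9, a carbonic anhydrase that is among the most HIF-dependent genes, read 46.3 ± 2.76 (SD, n = 3) in tumors and 43.9 ± 15.5 (SD, n = 2) in parental cells. Car12, another carbonic anhydrase, was dim, at 27.1 ± 2.83 (SD, n = 3) in tumors and 12.7 ± 0.48 (SD, n = 2) in parental cells. All 6 tumor arrays lay above both parental arrays, as for 10.3% of all genes, and the change was 0.58 (adjusted p = 0.146). Plaur, the urokinase receptor, had the largest change, 1.50 ± 0.31 (SE; adjusted p = 0.101), but its duplicate arrays disagreed widely, with 21.3 on the first and 424 on the second array of tumor 1. Cxcr4, a homing receptor for CXCL12, had a change of 0.93 (adjusted p = 0.126), and Pfkfb3, which makes the activator of phosphofructokinase, one of 0.70 (adjusted p = 0.231). Cxcr4 and Car12 were called higher with the array number as a block (adjusted p = 0.00927 and 0.0155). Ccng2 was called lower in that fit (adjusted p = 0.0266).

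Of 15 glycolysis genes 8 had a change above 0, with a median of 0.076, and 0 were called by limma, while 1 had an unadjusted p under 0.05. That one was Aldoc, an aldolase isoform of brain and other tissues, which read 274 and 242 (tumor 1), 115 and 46.4 (tumor 2) and 78.3 and 72.5 (tumor 3) on tumor arrays, against 18.8 and 1.16 in parental cells. Its change of 2.42 ± 0.55 (SE) was as large as that of Ndrg1, but it did not pass (adjusted p = 0.113). It was called with the array number as a block (adjusted p = 0.00103), a fit that leaves out the spread between mice. After Aldoc the largest changes of this list were 0.57 for Pkm, 0.47 for Pfkl and -0.41 for Slc16a1. Ldha, which turns pyruvate into lactate, had a change of 0.11 and Pgk1, a kinase of lower glycolysis, of 0.19.

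Of 16 relatives and partners of the 10 genes 8 had a change above 0, with a median of -0.032. Ramp1, which joins the receptor Calcrl to bind the peptide CGRP, rose: it read 269 and 539 (tumor 1), 447 and 514 (tumor 2) and 212 and 579 (tumor 3) on tumor arrays, against 89.3 and 74.1 in parental cells. All tumor arrays lay above both parental arrays, and the change was 2.10 ± 0.19 (SE; limma adjusted p = 0.00897). It was not called without parental array 1 (adjusted p = 0.0834), without parental array 2 (0.118) or on first arrays alone (0.45). Calcrl itself did not exceed 8.48 on any array. Flt1, a receptor for Vegfa, had a change of 1.40 (adjusted p = 0.169), and Ndrg3, a relative of Ndrg1, one of -0.76 (adjusted p = 0.186). With the array number as a block Flt1 and Ramp1 were called higher (adjusted p = 0.00345 and 0.00591). Ndrg3 and Vegfb were called lower in that fit (adjusted p = 0.00825 and 0.0404).

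**Figure D3:**
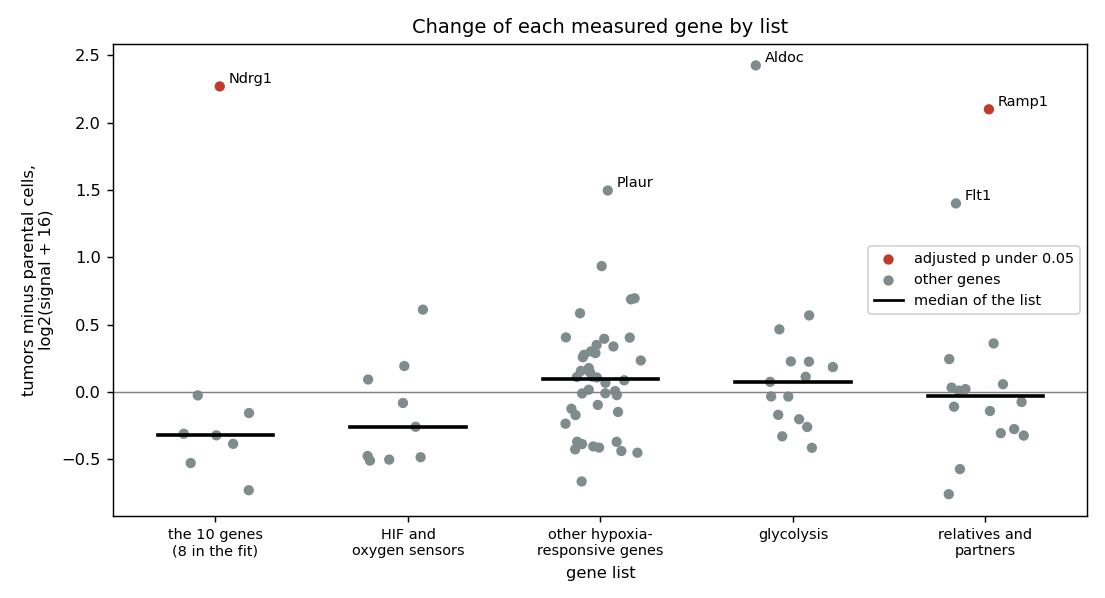
Change of each measured gene, tumors minus parental cells, on the scale of log2(signal + 16) (vertical) by list (horizontal), with a line at each list's median and red points for an adjusted p under 0.05. Ndrg1 at 2.27 stands alone above the others of the 10 genes in this fit, which lie between -0.73 and -0.03, and Ramp1 is the single red point among the other lists.

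The 5 genes outside the list named here had the profile nearest to that of Ndrg1 over the 8 arrays, by the mean absolute difference between log2 profiles centred on their own means. They were Slc44a4, a membrane transporter (0.15), Prkab1, a regulatory subunit of AMP-activated kinase (0.21), Slc7a9, an amino acid transporter (0.26), Clgn, a chaperone of the endoplasmic reticulum known from testis (0.27), and Rgs10, a regulator of G protein signalling (0.29). Slc44a4 read 58.4 and 114 (tumor 1), 79.0 and 114 (tumor 2) and 101 and 149.9 (tumor 3) on tumor arrays, against 2.67 and 4.82 in parental cells. In parental cells all 5 genes lay near or below the 40th percentile of signal, whereas Ndrg1 read 42.3 and 59.5. The 16 added to the signal therefore damps their changes more than that of Ndrg1. Whether the same genes are nearest with another added number was not tested, so the likeness may rest on that setting. Of the 10 genes themselves Slc2a1 was the nearest to Ndrg1, at 0.99, which put it at rank 6938 of the genes. Ndrg1 was chosen for its gap between tumors and parental cells, which weighs heavily in this distance. Nothing beyond that gap is therefore read from these ranks.

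Bnip3, Pdk1, Slc2a1 and Egln3 did vary together, but with the number of the array. Their promoters are shown because these 4 genes moved together. Each line gives the 250 bases before the RefSeq transcription start, 5′ to 3′ on the strand of the gene (GRCm38.p6), with every ACGTG or GCGTG on either strand in capitals, and overlapping matches run together. Pdk1 has 2 starts; the upstream one, which holds a match, is printed, and the other (chr2:71874654-71874903) holds 0.
Bnip3 (chr7:138909507-138909756, minus strand): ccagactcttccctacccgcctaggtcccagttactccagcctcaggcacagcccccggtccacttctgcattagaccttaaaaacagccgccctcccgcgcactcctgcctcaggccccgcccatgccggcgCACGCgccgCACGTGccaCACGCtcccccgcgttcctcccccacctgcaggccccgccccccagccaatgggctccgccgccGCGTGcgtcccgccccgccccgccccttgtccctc
Pdk1 (chr2:71872974-71873223, plus strand): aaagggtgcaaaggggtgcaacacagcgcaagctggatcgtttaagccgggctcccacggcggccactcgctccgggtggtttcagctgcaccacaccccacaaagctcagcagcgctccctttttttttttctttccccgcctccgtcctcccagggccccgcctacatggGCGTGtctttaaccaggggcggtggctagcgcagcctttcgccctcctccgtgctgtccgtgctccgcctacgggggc
Slc2a1 (chr4:119108495-119108744, plus strand): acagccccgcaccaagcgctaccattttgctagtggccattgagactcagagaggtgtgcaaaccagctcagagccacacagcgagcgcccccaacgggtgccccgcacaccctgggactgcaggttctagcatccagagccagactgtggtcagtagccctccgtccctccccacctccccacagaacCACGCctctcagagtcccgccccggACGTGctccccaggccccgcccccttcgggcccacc
Egln3 (chr12:54203875-54204124, minus strand): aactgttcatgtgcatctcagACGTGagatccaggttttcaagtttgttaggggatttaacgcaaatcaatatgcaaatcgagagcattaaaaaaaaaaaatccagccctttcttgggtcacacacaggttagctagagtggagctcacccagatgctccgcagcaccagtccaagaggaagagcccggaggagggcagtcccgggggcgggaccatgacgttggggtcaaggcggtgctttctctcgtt

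Promoters matched 8 of the 10 genes, all but Ndrg1 and Bnip3l, with 2 starts each for Pdk1 and Vegfa. Of these 10 promoters 8 held a match to ACGTG or GCGTG within 250 bases, where 38.6% of all 32851 promoters did (ACGTG 16.6%, GCGTG 28.2%). The Bnip3 promoter held 5 matches, as many as or more than which 1.01% of all promoters held. Matches were counted on each strand, so its single CACGTG, which holds ACGTG on both strands, counts as 2 of them. Those of Slc2a1 and Ddit4 held 2 each, that of P4ha1 held 3, that of Adm 2 and that of Egln3 held 1. A match describes the letters and does not show that a factor binds there.

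The first array of each source was higher than the second for all 4 genes. Pdk1, for which the log2 difference between first and second array was 0.53 in tumor 1, 1.27 in tumor 2, 0.48 in tumor 3 and 1.97 in parental cells, had a mean difference of 1.06 ± 0.24 (SE; limma adjusted p = 0.032; 4 of 4 sources). Bnip3 differed by 0.98 in tumor 1, 1.16 in tumor 2, 0.42 in tumor 3 and 1.37 in parental cells, with a mean of 0.98 ± 0.16 (SE; adjusted p = 0.0149; 4 of 4 sources). Among genes higher on first arrays Pdk1 was at rank 15 and Bnip3 at rank 20 of 8535 genes; by size in either direction they were at ranks 114 and 133.

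Egln3 (0.71 ± 0.18 SE, adjusted p = 0.0388) and Slc2a1 (0.70 ± 0.14 SE, adjusted p = 0.0227) were higher on the first arrays too, again in 4 of 4 sources; 20.9% of all genes were higher on the first array in every source. The fit held a mean per source and the array number, left 3 residual degrees of freedom and was chosen after the values had been seen. Of the 8 genes in it 4 were called higher on first arrays, where 7.86% of all genes were. Every probe set of the 4 genes was higher on the first array in each source, and in a fit over all probe sets 7 of their 8 probe sets were called, where 9.8% of all probe sets were, the exception being 1423748_at of Pdk1 (adjusted p = 0.0727). The calls depended on which source was left out: without tumor 2, where 0 of all genes were called, or without tumor 1, none of the 4 was called (adjusted p from 0.0563 to 0.139), without the parental arrays Bnip3 alone was, and without tumor 3 Bnip3, Slc2a1 and Pdk1 were (adjusted p = 0.0259, 0.0478 and 0.0492).

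Ndrg1 and Ddit4 went the other way on their brightest probe sets, with the first array lower in all 4 sources and mean differences of -0.36 (adjusted p = 0.0884) and -0.33 (adjusted p = 0.231) that did not pass. On the other 4 probe sets of Ndrg1 the difference was -0.22 to -0.10, and 1 or 2 of the 4 sources had a higher first array. P4ha1 differed by 0.41 (adjusted p = 0.156) and Vegfa by 0.07 (adjusted p = 0.654). For Ndrg1 the array number thus moved the signal far less than the tumors' distance from parental cells: tumors minus parental was 2.28 on first arrays and 2.26 on second arrays.

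**Figure D4:**
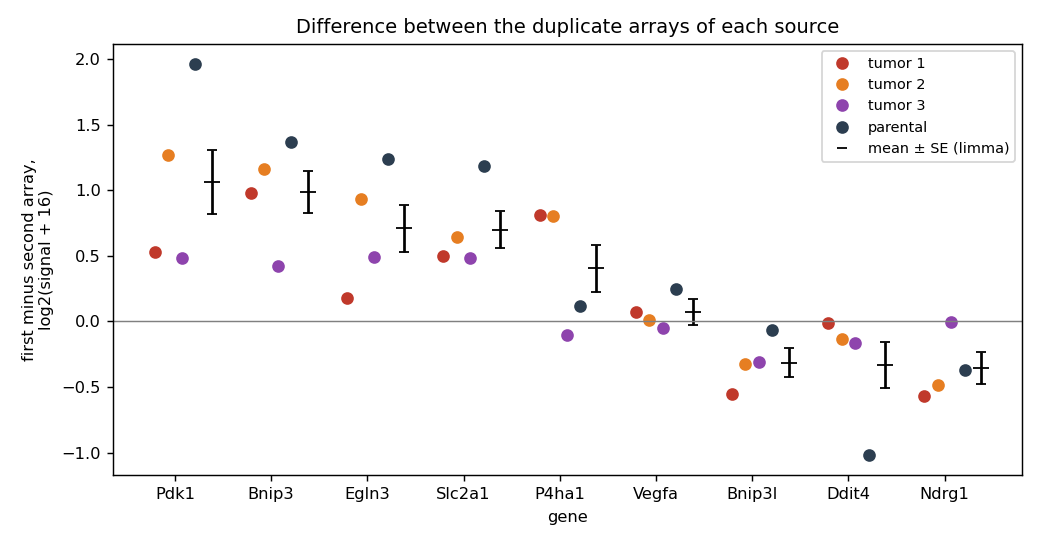
First minus second array on the scale of log2(signal + 16) (vertical) for 9 genes (horizontal), with a point per source, tumors left of parental cells, and the limma mean ± SE at the right of each gene. All 4 sources lie above 0 for Pdk1, Bnip3, Egln3 and Slc2a1, and no source lies above 0 for Bnip3l, Ddit4 and Ndrg1. Each gene is drawn on 1 probe set, which is 1416922_a_at for Bnip3l. On 1416923_a_at and 1448525_a_at of Bnip3l, 2 of 4 sources had a higher first array, with means of -0.07 and -0.03.

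The sign of some tumor-against-parental values turned with the array number. Slc2a1 was lower in all 3 tumors than in parental cells on first arrays (-0.35) and higher in all 3 on second arrays (0.30), a pattern that 2.75% of all genes showed. Pdk1 was -1.13 on first arrays and 0.075 on second arrays, and -0.80 and 0.57 on its other probe set. Egln3 was -0.68 on first arrays and 0.032 on second arrays, where 1 of 3 tumors lay above parental cells. Its dimmer probe set 1418648_at did not turn, at -0.92 and -0.38. P4ha1 was 0.038 on first arrays and -0.35 on second arrays, but -0.10 and -0.13 on its other probe set. Bnip3l was lower on both, at -0.97 and -0.64, and so was Vegfa, at -0.50 and -0.27. Bnip3 was -0.57 on first arrays and -0.05 on second arrays. Without parental array 1 the changes were 0.57 for Slc2a1, 0.46 for Pdk1, 0.38 for Bnip3 and 0.30 for Egln3, but these set tumor arrays of both numbers against a second parental array alone and so hold the difference between array numbers. Parental cells have a single pair of arrays, so whether their gap between array numbers differs from that of the tumors cannot be judged against a spread of their own.

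Glycolysis genes were mostly higher on first arrays, 12 of 15 with a median of 0.29 against -0.0040 for all genes, and 5 were called higher and 0 lower by limma, where 7.86% of all genes were called in each direction. They were the kinases Hk1, Pfkl, Pfkm and Pfkp and the lactate carrier gene Slc16a1. Pfkl, the liver-type phosphofructokinase, differed by 0.82 ± 0.17 (SE; adjusted p = 0.0233). Of the 42 further hypoxia-responsive genes 5 were called higher on first arrays (Higd1a, Tfrc, Lonp1, Jmjd6 and Ak3) and 6 lower, among them the metallothionein genes Mt1 (-1.43, adjusted p = 0.0108) and Mt2 (-1.63, adjusted p = 0.0121), Btg1, Cxcr4, Dusp1 and Mxi1, so members of that list went both ways, where 7.86% of all genes were called in each direction. Among the 16 relatives and partners Ndrg3, Sesn1, Tsc2 and Pdha1 were called higher and 0 lower, against the same 7.86%, and of the 9 HIF and sensor genes Vhl was called lower.

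Markers of other cells moved with the array number as well. All 9 measured macrophage and monocyte genes had a mean difference below 0, with a median of -1.06. Of these 7 were called lower on first arrays, where 7.86% of all genes were. In all 4 sources 6 were lower on the first array, as were 20.7% of all genes. Their summed signal was 224 to 3750 on first arrays and 1062 to 5999 on second arrays. Csf1r, the receptor that defines this lineage, had a mean difference of -2.35 (adjusted p = 0.0234), and in parental cells it read 11.5 on the first and 555 on the second array. The 4 measured mast cell and basophil genes had a median of -1.78, with Cpa3 and Cma1 called lower, against the same 7.86%. The part of these genes' sources, or of any difference in handling between the arrays, in the values of Bnip3, Pdk1, Slc2a1 and Egln3 was not tested.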

How the data were processed

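The authors deposited linear signal intensities per probe set, made with MAS5 per the submitters' processing notes (version: not given in the sources used here). All arrays had a trimmed mean of 150.06 after 2% was dropped from either tail, the mark of a common scaling target, under which a gain in some transcripts lowers the signal of others. RNAzol, RNeasy columns and one-cycle biotin labelling were used, per the labels' protocols. Median signal per array lay between 32.4 and 37.9. The number of arrays limits the precision.

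Symbols from the platform annotation were updated by gene ID to RefSeq names of GRCm38.p6 (20351 of 20380 probe sets with 1 symbol matched; 691 had several and 1555 none; the 64 controls were dropped). Only Bnip3l was read from probe sets with joined symbols. Values were log2(signal + 16), which understates changes of dim genes. Probe sets had to exceed the 40th percentile of their array on 2 of the 8 arrays, and the brightest stood for its gene, which left 8535 genes.

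limma 3.58.1 in R 4.3.3 compared the 3 tumor means with the 2 parental arrays, the tumors with each other in a fit of all 8 arrays, and first with second arrays with a mean per source, each two-sided with Benjamini-Hochberg adjustment over all genes at 0.05; the fits were tested on simulated data. The array numbers pair the arrays: differences between first and second array correlated across genes at 0.40 to 0.595 in all 6 pairs of sources. The 10 genes, the lists and the tests were chosen with earlier results of these data known, and the comparison of first with second arrays and its alternatives were added after seeing the data. The genes named are the 10, the called genes and the 3 largest changes per list with all tumor means on one side of both parental arrays, and the 5 nearest to Ndrg1; others were named after their values were seen. Alternatives were pseudocounts of 1 and 64, no filter or the 60th percentile, median centring, quantile normalization, averaging the probe sets of a gene, each probe set by itself, the array number as a block, first or second arrays alone, and leaving out each sample. Promoters came from RefSeq's GRCm38.p6.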

Additional observations from a re-analysis of the deposited data

Results flagged for a closer look

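Slc2a1 stood out because all 3 tumors lay below parental cells on first arrays, by -0.35 on the log2 scale, and all 3 lay above them on second arrays, by 0.30. Parental cells have 1 pair of arrays and the pattern was picked after it was seen, so the fit of the difference between these directions (limma adjusted p = 0.754) says nothing for or against it. The other 2 probe sets of Slc2a1 gave -0.24 and 0.072 on first arrays and 0.53 and 0.24 on second arrays, so 1426600_at did not turn.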

How the results depend on the processing

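Ndrg1's change ran from 1.69 to 2.57 over its 15 alternatives. Of 666 recomputed values, 517 were rated the same as the main one. The sign of a called value turned in 0, but most values carried no call, so that outcome was largely fixed. The changes of Slc2a1, Pdk1, Egln3, Bnip3 and P4ha1 kept their sign in 11, 13, 13, 14 and 14 of 15 alternatives. Those of Ndrg1, Vegfa, Ddit4 and Bnip3l kept it in all 15. At a pseudocount of 1, 309 genes were called higher and 316 lower on first arrays (1 of the 10 genes among them); at 64, 23 genes were called higher in tumors and the median of the further hypoxia-responsive genes was 0.063. With no filter 21 genes were called higher and 5 lower in tumors, 404 higher and 397 lower on first arrays (2 of the 10 genes), and the medians were -0.17 for HIF and its sensors and 0.069 for further targets; at the 60th percentile they were -0.49 and -0.0014. Quantile normalization gave 0.036 for further targets. Median centring, which moved the median of all genes by -0.11, gave 27 genes lower and medians of -0.37 (HIF), -0.011 (further targets), -0.032 (glycolysis) and -0.14 (relatives). Averaging probe sets gave 9 lower, -0.12 and 0.069; single probe sets gave 30 lower, 2 list members higher, 0.017 for further targets, and 1459 higher and 1136 lower on first arrays. First arrays alone gave 5 higher, 0 lower, 0 list genes, and medians of -0.17, -0.0032, -0.15 and -0.15; second arrays alone gave 10 higher, 2 lower, and -0.35, 0.21 and 0.21 for the first 3 lists. With the replicate block 739 genes were called higher and 500 lower, and 6 and 6 in the lists, against 356 calls in the same 8 arrays without it; it changed no call of the 10 genes but that of Bnip3l. Leaving out 1 tumor gave 43 to 65 genes higher, 7 to 11 lower, and medians of -0.42 to -0.19, 0.068 to 0.11, -0.021 to 0.090 and -0.11 to -0.033 for the 4 lists; leaving out 1 parental array gave 9 to 10 higher, 4 to 7 lower, 0 list genes, and medians of -0.30 to -0.17, 0.072 to 0.14, -0.18 to 0.23 and -0.24 to 0.023. Leaving out a source gave 0 to 379 genes higher and 0 to 389 lower on first arrays, with 0 to 3 of the 10 genes; those fits had fewer sources. The causes of the other shifts were not tested. Adm was too dim for any call.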
